A study of Mus musculus with 10 samples.

Results

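Of the 55291 genes measured in bulk RNA from mouse liver, 10 were followed here: the matrix metalloproteinases (MMPs) Mmp2, Mmp3, Mmp8, Mmp9, Mmp13, Mmp14 and Mmp19 and the tissue inhibitors of metalloproteinases (TIMPs) Timp1, Timp2 and Timp3. They were taken by gene symbol, Mmp12 being described only beside them, and all 10 passed the filter on low counts that left 17015 genes for testing. The livers came from female mice of 16 to 20 weeks that carried a Cas9 gene held silent by a stop cassette until Cre removes it. All mice received an AAV8 vector with a guide RNA and a Cre gene under the hepatocyte TBG promoter, so that editing was aimed at hepatocytes, while RNA was made from the whole right lobe with its stellate, immune and endothelial cells. The guide was a non-targeting control (NTC) or a guide to Bap1 (sgBap1), a deubiquitinase gene. After 10 days the mice were injected once with olive oil (Veh) or with the hepatotoxin carbon tetrachloride (CCl4, 1 part in 9 parts of olive oil, 10 µL per g of body weight), and tissue was taken 48 hours later. Groups are named by guide and injection, with 2 livers in each vehicle group and 3 in each CCl4 group.

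MMPs are zinc endopeptidases that are made as inactive proenzymes and cut collagens, laminin, fibronectin and other matrix proteins once activated. TIMPs bind the active site of MMPs in a tight complex, and the balance of both classes sets how fast matrix is turned over. In injured liver, stellate cells, macrophages, neutrophils and endothelial cells are known sources of MMPs, and Timp1 is a well known product of activated stellate cells. RNA levels, as measured here, do not give the amount of active enzyme.

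RefSeq promoter sequences (GRCm38.p6) were at hand for 7 of the 10 members: Mmp3, Mmp8, Mmp13, Mmp14, Timp1, Timp2 and Timp3. Mmp2, Mmp9 and Mmp19 had no entry. The 120 bases before the start site are shown for the 3 members that lie in a run of MMP genes on chromosome 9 and for Timp1, because these 4 are the members whose levels after CCl4 were furthest above those with vehicle. Capitals mark a match on either strand to the AP-1 motif TGACTCA, to the TATA box letters, written TATAAA, or to the ETS motif, written AGGAAG, and none of these matches overlaps another.
Mmp13, chr9:7272394-7272513, + strand: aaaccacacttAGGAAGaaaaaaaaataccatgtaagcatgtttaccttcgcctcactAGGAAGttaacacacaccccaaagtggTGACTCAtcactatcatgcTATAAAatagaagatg
Mmp3, chr9:7445702-7445821, + strand: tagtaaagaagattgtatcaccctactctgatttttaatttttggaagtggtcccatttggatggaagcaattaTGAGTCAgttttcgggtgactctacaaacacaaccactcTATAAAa
Mmp8, chr9:7558309-7558428, + strand: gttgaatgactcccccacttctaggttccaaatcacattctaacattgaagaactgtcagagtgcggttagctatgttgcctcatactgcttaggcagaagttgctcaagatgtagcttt
Timp1, chrX:20870046-20870165, + strand: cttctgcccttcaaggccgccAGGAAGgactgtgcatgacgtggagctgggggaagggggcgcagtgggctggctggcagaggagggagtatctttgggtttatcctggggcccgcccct
Within 250 bases before the start, Mmp13 and Mmp3 each held 1 AP-1 match and 1 TATA match, and the other 5 promoters held neither. Of the 32851 promoters in the table, 4.46% held the AP-1 motif, 12.4% TATAAA and 29.5% AGGAAG. The G and C content of the 250 bases was 37.6% for Mmp3, 40.4% for Mmp13 and 44.8% for Mmp8, against 54.4% for Timp1, 55.2% for Mmp14, 65.6% for Timp3 and 68% for Timp2, with a median of 52.4% over all promoters. These matches are letters in a window and were not tested as binding sites.

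The libraries held 33047904 to 52199904 estimated counts each, and values are given as CPM, counts relative to the TMM-scaled size of their library, on which 3 counts correspond to 0.0511 to 0.112 CPM. Bap1 stood at 29.5 to 34.8 CPM in the 5 NTC livers and at 17 to 21.8 CPM in the 5 sgBap1 livers, without overlap. Hepatocyte markers led the sums in every liver, as the tissue label says. The liver sgBap1-CCl4 replicate 2 stood apart from the other 9. It held the fat cell genes Adipoq at 36.4, Plin1 at 34.5, Cfd at 144 and Retn at 17.7 CPM, where no other liver exceeded 0.0425 CPM for any of the 4, and the 8 fat cell markers summed to 357 CPM against 17.9 to 31.1 CPM elsewhere. NTC-Veh replicate 1 was low in the 6 mesothelial markers, with a sum of 1.01 CPM against 5.33 to 21.9 CPM in the others.

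**Figure D1:**
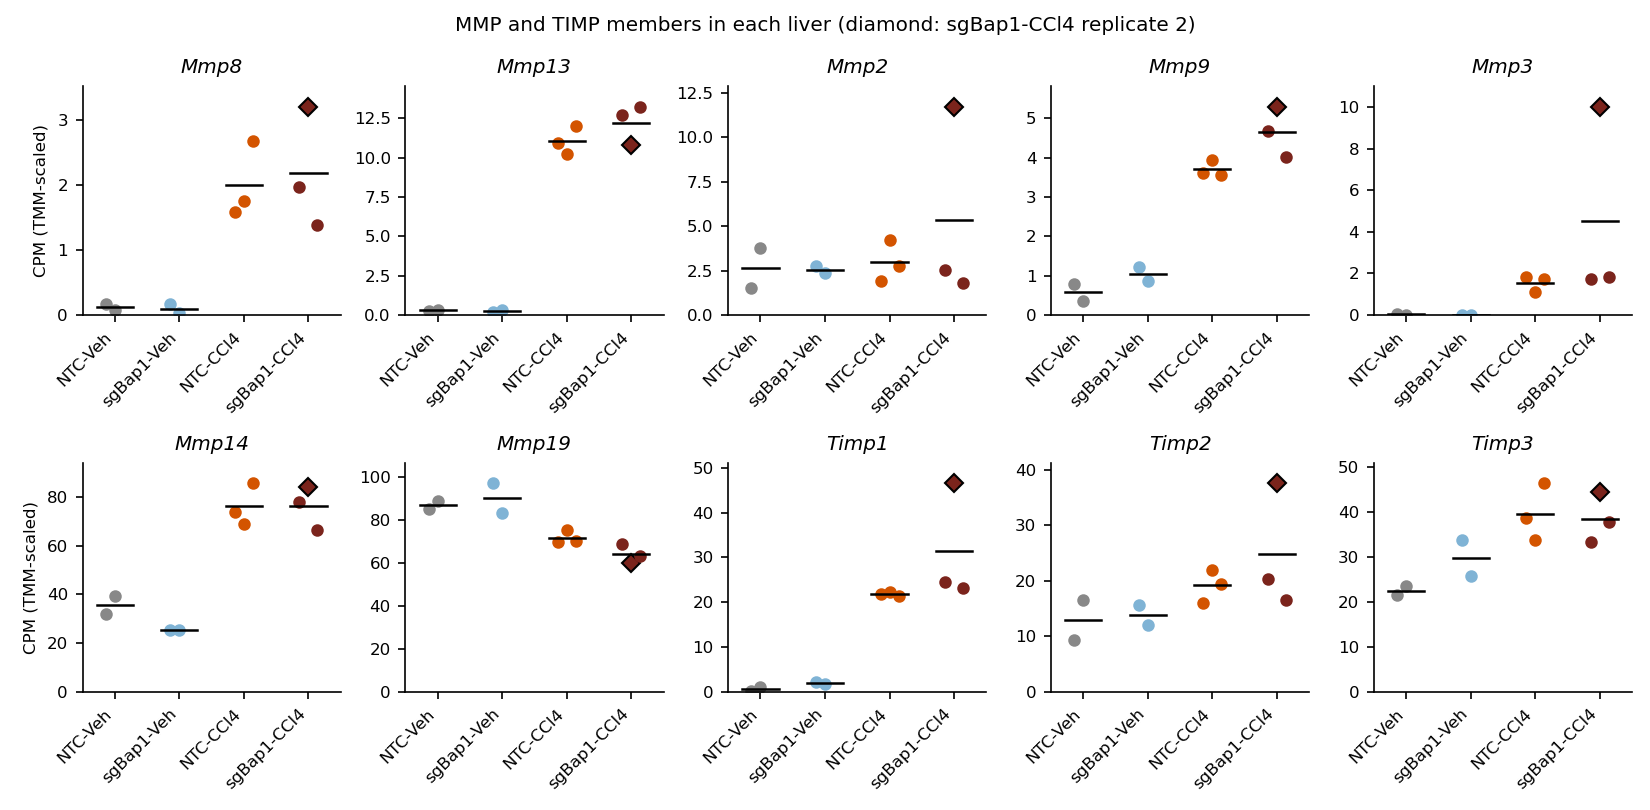
Level of each member in every liver, in TMM-scaled CPM on a linear axis from 0, with 1 point per liver, a bar at the group mean and a diamond for sgBap1-CCl4 replicate 2. Mmp13 runs from 0.215 to 0.337 CPM with vehicle and from 10.2 to 13.2 CPM after CCl4, and the diamond is the highest point for Mmp2, Mmp3, Mmp8, Mmp9, Timp1 and Timp2.

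The first comparison asks how injury changes the members. After CCl4 in NTC livers, 7 of the 10 members rose (Mmp3, Mmp8, Mmp9, Mmp13, Mmp14, Timp1 and Timp3), Mmp19 fell, and Mmp2 and Timp2 were not called at an adjusted p of 0.05. Of all tested genes 53.9% were called in this comparison, 27.4% higher and 26.6% lower. In sgBap1 livers 6 rose, the above without Timp3, and Mmp19 fell, against 57.0% of all genes called, 29.0% higher and 28.0% lower. Mmp3 and Mmp8 had few vehicle counts, so they passed the filter through their CCl4 livers and could hardly be called lower. At an unadjusted p under 0.05 there were 8 members in NTC and 7 in sgBap1 livers, against 59.1% and 61.7% of all genes. The livers of the groups did not overlap for 7 members higher and 1 lower in NTC, where 36.7% of all genes were higher and 35.0% lower in this way (71.7% in either direction), and for 7 higher and 1 lower in sgBap1 livers, where it was 37.3% and 34.9% (72.2% in either direction). The median log2 fold change of the 10 members was 1.89 in NTC and 1.865 in sgBap1 livers, also with Mmp3 set at its bound, against 0.03 and 0.04 over all genes. All of these are levels in whole tissue, in which fewer cells of a type and less RNA per cell cannot be told apart. Scaled by library size alone, the median of all genes moved to 0.50 in NTC and 0.52 in sgBap1 livers, so every change below is relative to the bulk of genes. On that scale 7 members were called in NTC livers and 8 in sgBap1 livers, all of them higher, Timp2 (1.35, adjusted p = 0.0267) and Timp3 (0.85, adjusted p = 0.00448) being added in sgBap1 livers and Mmp19 not being called.

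Mmp13 and Mmp8, collagenases that cut fibrillar collagen across its triple helix, rose from near the limit of detection. Mmp14, which also cuts collagen and was well above that limit with vehicle, is described below. Mmp13 (ENSMUSG00000050578.10, chr9:7272514-7283331) was at 0.245 and 0.333 CPM in NTC-Veh, 0.215 and 0.337 CPM in sgBap1-Veh, 10.9, 10.2 and 12 CPM in NTC-CCl4 and 12.7, 10.8 and 13.2 CPM in sgBap1-CCl4. The 6 livers with CCl4 all lay above the 4 with vehicle, and the spread within each group was small beside the distance. Its log2 fold change was 5.25 ± 0.22 (SE) in NTC livers, a 38-fold difference (adjusted p = 5.92e-07, edgeR quasi-likelihood test), and 5.50 ± 0.23 in sgBap1 livers (adjusted p = 3.07e-07). Mmp8 (ENSMUSG00000005800.3, chr9:7558456-7568485), the collagenase stored in neutrophil granules, had 0.163 and 0.0831 CPM in NTC-Veh, 0.162 and 0.0374 CPM in sgBap1-Veh, 1.58, 1.75 and 2.68 CPM in NTC-CCl4 and 1.98, 3.2 and 1.38 CPM in sgBap1-CCl4. These vehicle values rest on 1 to 6 counts a liver, and no liver with vehicle reached the lowest with CCl4. Mmp8 rose by a log2 fold change of 3.97 ± 0.63 in NTC (adjusted p = 0.000387) and 4.30 ± 0.66 in sgBap1 livers (adjusted p = 0.000288).

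Mmp3 (stromelysin-1, chr9:7445822-7455975), which cuts proteoglycans, laminin and fibronectin and can activate other MMP proenzymes, was nearly absent with vehicle. It had 2 counts in NTC-Veh replicate 1 and 0 counts in the other 3 vehicle livers, against 1.81, 1.11 and 1.72 CPM in NTC-CCl4 and 1.75, 10 and 1.81 CPM in sgBap1-CCl4. 5 of the 6 CCl4 livers lay close together and sgBap1-CCl4 replicate 2 stood far above them. In NTC livers the ratio of summed counts was 55.2 (95% counting interval 15.1 to 459, from 210 and 2 counts; adjusted p = 0.0278), and in sgBap1 livers the level was at least 100-fold higher (774 counts against 0, set at a floor of 3 counts over the group; adjusted p = 0.00404). Without sgBap1-CCl4 replicate 2 this bound was 37.8-fold (188 counts against 0; adjusted p = 4.56e-05). Intervals and floors cover counting error only. The NTC call was lost without NTC-Veh replicate 1 (adjusted p = 0.159), NTC-Veh replicate 2 (0.204) or NTC-CCl4 replicate 1 (0.0504), with limma-voom (0.116) and with no filter (0.0867). Of the 50-base stretches of Mmp3 transcripts, 8.39% also occur in Mmp10 or Gm15244, so a part of its reads could be shared with them.

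Of the gelatinases, which digest denatured collagen and basement membrane, Mmp9 was called after CCl4 with both guides and Mmp2 with neither. These genes were not tested against each other. Mmp9 (chr2:164940780-164955850) was at 0.789 and 0.36 CPM in NTC-Veh, 1.21 and 0.861 CPM in sgBap1-Veh, 3.6, 3.94 and 3.56 CPM in NTC-CCl4 and 4.67, 5.29 and 4.02 CPM in sgBap1-CCl4. Vehicle and CCl4 livers did not overlap, and it rose by 2.68 ± 0.29 (log2) in NTC (adjusted p = 3.77e-05) and 2.14 ± 0.27 in sgBap1 livers (adjusted p = 8.34e-05). Its NTC value was 3.35 without NTC-Veh replicate 1 and 2.23 without NTC-Veh replicate 2. Mmp2 (chr8:92827291-92853420) had 1.52 and 3.74 CPM in NTC-Veh, 2.75 and 2.36 CPM in sgBap1-Veh, 1.94, 4.21 and 2.73 CPM in NTC-CCl4 and 2.54, 11.7 and 1.81 CPM in sgBap1-CCl4. Apart from the 11.7 CPM of sgBap1-CCl4 replicate 2, the vehicle and CCl4 livers covered the same range. Its log2 difference was 0.18 in NTC (95% interval -1.77 to 2.13, adjusted p = 0.874) and 1.07 in sgBap1 livers (-0.88 to 3.02, adjusted p = 0.311), the latter moving to -0.23 without sgBap1-CCl4 replicate 2.

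Mmp14 (MT1-MMP, chr14:54431612-54445364) sits in the cell membrane, cuts collagen at the cell surface and activates the Mmp2 proenzyme together with Timp2. It read 32 and 39.1 CPM in NTC-Veh, 25.2 and 25.4 CPM in sgBap1-Veh, 73.9, 68.9 and 85.6 CPM in NTC-CCl4 and 77.8, 84 and 66.5 CPM in sgBap1-CCl4. The CCl4 livers of both guides covered the same range, well above vehicle. The log2 fold change was 1.1 ± 0.13 in NTC (adjusted p = 7.5e-05) and 1.59 ± 0.14 in sgBap1 livers (adjusted p = 8.51e-06).

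Mmp19 (chr10:128790910-128800824), a widely expressed MMP that cuts basement membrane components, was the only member that fell. Its levels were 85.3 and 89.1 CPM in NTC-Veh, 97.1 and 83.3 CPM in sgBap1-Veh, 69.6, 75.6 and 70.2 CPM in NTC-CCl4 and 68.7, 60.2 and 63.3 CPM in sgBap1-CCl4. Every CCl4 liver lay below every vehicle liver. The log2 fold change was small, -0.28 ± 0.09 in NTC (adjusted p = 0.0278) and -0.49 ± 0.09 in sgBap1 livers (adjusted p = 0.00124), and with library size alone it read 0.19 in NTC (adjusted p = 0.143) and -0.02 in sgBap1 livers (adjusted p = 0.893), where the median of all genes was 0.50 and 0.52. The NTC call was also lost without NTC-Veh replicate 1 (adjusted p = 0.0725), NTC-Veh replicate 2 (0.146), NTC-CCl4 replicate 1 (0.0817) or NTC-CCl4 replicate 3 (0.0755), and with no filter (0.0678).

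Among the inhibitors, Timp1 (ENSMUSG00000001131.11, chrX:20870166-20874735), a secreted inhibitor of most soluble MMPs, had the largest response. Its level was 0.191 and 0.97 CPM in NTC-Veh, 2.13 and 1.76 CPM in sgBap1-Veh, 21.8, 22.2 and 21.4 CPM in NTC-CCl4 and 24.4, 46.6 and 23.1 CPM in sgBap1-CCl4. The 4 groups lay in that rising order without overlap, and sgBap1-CCl4 replicate 2 stood well above the other 5 CCl4 livers. Timp1 rose by 5.23 ± 0.55 (log2) in NTC livers (adjusted p = 7.81e-05), where it was 4.49 without NTC-Veh replicate 1 and 6.82 without NTC-Veh replicate 2, and by 4.0 ± 0.48 in sgBap1 livers (adjusted p = 0.000154), where it moved to 3.60 without sgBap1-CCl4 replicate 2.

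Timp2 (chr11:118301069-118355740, - strand), the inhibitor that also takes part in Mmp2 activation, had 9.31 and 16.5 CPM in NTC-Veh, 15.6 and 12 CPM in sgBap1-Veh, 16, 22 and 19.4 CPM in NTC-CCl4 and 20.4, 37.5 and 16.4 CPM in sgBap1-CCl4. The NTC groups overlapped, the sgBap1 groups did not, and neither comparison was called (log2 0.57, 95% interval -0.29 to 1.43, adjusted p = 0.234 in NTC; 0.84, -0.03 to 1.71, adjusted p = 0.0889 in sgBap1). The NTC value was 0.22 without NTC-Veh replicate 1 and 1.04 without NTC-Veh replicate 2, neither called (adjusted p = 0.732 and 0.114). Without sgBap1-CCl4 replicate 2 the sgBap1 value was 0.41, while without sgBap1-CCl4 replicate 3 it was 1.05 and passed (adjusted p = 0.0352), as it did with DESeq2 (adjusted p = 0.029). Timp3 (chr10:86300372-86349506), which is bound to the matrix and also inhibits ADAM proteases, read 21.4 and 23.4 CPM in NTC-Veh, 33.8 and 25.8 CPM in sgBap1-Veh, 38.7, 33.7 and 46.3 CPM in NTC-CCl4 and 33.2, 44.4 and 37.8 CPM in sgBap1-CCl4. It rose in NTC livers by 0.82 ± 0.17 (adjusted p = 0.00242). In sgBap1 livers, where the groups overlapped, the log2 difference was 0.37 (95% interval -0.01 to 0.74, adjusted p = 0.0857), and it passed without sgBap1-CCl4 replicate 1 (adjusted p = 0.0488) or sgBap1-Veh replicate 1 (0.0431).

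**Figure D2:**
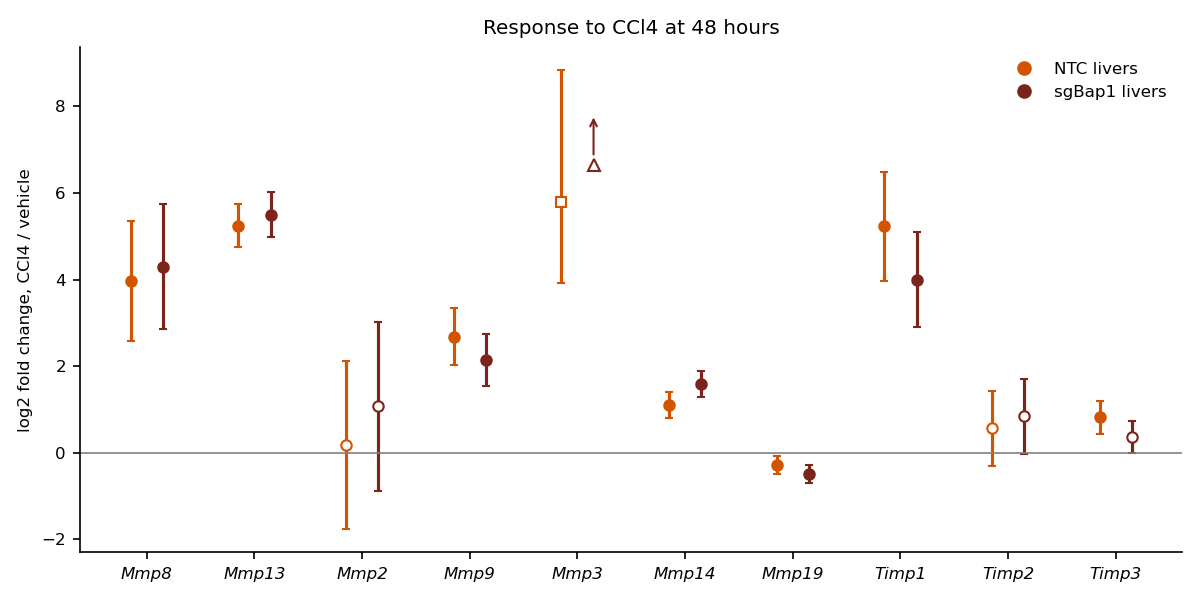
log2 fold change of each member after CCl4 against vehicle (vertical axis) in NTC and sgBap1 livers, with 95% intervals and filled circles for an adjusted p under 0.05. For Mmp3 the open square is the ratio of counts with its counting interval and the triangle a lower bound. Mmp13 lies at 5.25 and 5.50, and Mmp19 lies below 0 for both guides on TMM scaling, but at 0.19 in NTC livers with library size alone.

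Markers of the cell types known to make these proteins moved with the same comparison. In NTC livers the sum over 14 macrophage and monocyte markers went from 244 to 357 CPM with vehicle to 1048 to 1357 CPM after CCl4, with 11 of 14 called higher. Of all tested genes 27.4% were called higher and 26.6% lower in this comparison. The 12 neutrophil markers summed to 7.79 to 14.0 CPM with vehicle and 31.7 to 46.1 CPM after CCl4 (7 of the 9 tested higher), and the 12 stellate cell and myofibroblast markers to 144 to 168 CPM and 309 to 380 CPM (8 higher and 1 lower). Among the last, Acta2, the smooth muscle actin of activated stellate cells, rose by 4.14 ± 0.53 (log2, adjusted p = 0.000279). In the same list the group mean of Colec11 went from 34.5 to 15.9 CPM and that of Reln from 51.4 to 58.5 CPM. The sum of the 10 hepatocyte markers was 130900 to 161200 CPM with vehicle and 72060 to 82570 CPM after CCl4. In sgBap1 livers the macrophage and monocyte sum was 490 to 702 CPM with vehicle and 1024 to 1336 CPM after CCl4. The neutrophil sum was 12.7 to 17.6 and 37.35 to 45.9 CPM, and the stellate cell sum 156 to 179 and 308 to 518.5 CPM. Without sgBap1-CCl4 replicate 2, 5 of the 9 neutrophil markers tested were called higher in sgBap1 livers. Group means of Mpo (0.187 to 0.0483 CPM), Ngp (0.3755 to 0.236) and Camp (0.0374 to 0.0299), all on few counts, read lower after CCl4. Stfa2 had no counts there and the other neutrophil markers read higher. Without sgBap1-CCl4 replicate 2, 8 of the 14 macrophage and monocyte markers were called higher there and 1 lower. The part of cell numbers in the MMP and TIMP values was not tested.

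The second comparison asks what the Bap1 guide does without injury. In sgBap1-Veh against NTC-Veh livers, 0 of the 10 members were called by edgeR, by DESeq2 or by limma-voom, with 0.406% of all genes called by edgeR (0.276% higher and 0.129% lower). At an unadjusted p under 0.05 edgeR gave 3 members, Mmp14, Timp1 and Mmp9, against 12.3% of all genes. DESeq2 gave 4 and limma-voom 1, for which no share of all genes was taken. Mmp14 was lower in both sgBap1-Veh livers (25.2 and 25.4 CPM) than in both NTC-Veh livers (32 and 39.1 CPM), a log2 difference of -0.49 ± 0.14 (95% interval -0.81 to -0.17, adjusted p = 0.181), which was -0.63 without NTC-Veh replicate 1 and -0.34 without NTC-Veh replicate 2. Timp1 was higher in both, at 2.13 and 1.76 CPM against 0.191 and 0.97 CPM (1.75 ± 0.63, 0.31 to 3.20, adjusted p = 0.302), and this difference was 1.01 without NTC-Veh replicate 1 and 3.34 without NTC-Veh replicate 2. Mmp9 was higher in both, at 1.21 and 0.861 CPM against 0.789 and 0.36 CPM (0.87 ± 0.37, 0.06 to 1.68, adjusted p = 0.369), and this was 1.54 without NTC-Veh replicate 1 and 0.42 without NTC-Veh replicate 2. With Timp3, 3 members were higher and Mmp14 lower without overlap of the livers, where 21.7% of all genes were higher and 19.2% lower in this way (40.9% in either direction). The macrophage and monocyte markers summed to 490 to 702 CPM in sgBap1-Veh against 244 to 357 CPM in NTC-Veh, with 1 of 14, Csf1r, called higher (1.06 ± 0.18, adjusted p = 0.0487, but 0.0979 without NTC-Veh replicate 1). Whether these cells carry the Timp1 and Mmp9 differences was not tested.

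For the remaining members with vehicle, the log2 difference between guides was -0.04 (95% interval -2.25 to 2.18) for Mmp2, -0.18 (-2.81 to 2.45) for Mmp8, -0.11 (-0.95 to 0.73) for Mmp13, 0.05 (-0.18 to 0.28) for Mmp19, 0.10 (-0.84 to 1.05) for Timp2 and 0.41 (-0.0004 to 0.82) for Timp3. For Mmp3, with 2 and 0 counts, no fold was taken. The intervals of Mmp2 and Mmp8 were the widest of these 6 and that of Mmp19 the narrowest.

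The third comparison asks whether the guide alters the injured liver. After CCl4, 0 of the 10 members were called between sgBap1 and NTC livers by edgeR, DESeq2 or limma-voom, with 0.329% of all genes called by edgeR (0.2% higher and 0.129% lower). At an unadjusted p under 0.05 DESeq2 and limma-voom gave 0 members, with no share of all genes taken for them. At this threshold edgeR gave 1, Mmp3, against 14.0% of all genes. Its log2 difference of 1.57 (95% interval 0.05 to 3.10, adjusted p = 0.344) came to 0.22 without sgBap1-CCl4 replicate 2. The same liver carried the other large differences: without it, Mmp2 went from 0.86 to -0.45, Timp1 from 0.53 to 0.12 and Timp2 from 0.38 to -0.05. Its fat cell markers are given above, and its 12 stellate cell and myofibroblast markers summed to 518.5 CPM against 308 to 380 CPM in the other 5 CCl4 livers. The part of fat cells or stellate cells in its MMP and TIMP levels was not tested. Timp4, the inhibitor known from fat tissue and heart, followed the same liver, at 0.599 CPM there and 0 CPM in the other 5 CCl4 livers.

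The other members had smaller differences between guides after CCl4. Mmp13 differed by 0.15 (95% interval -0.13 to 0.43), Mmp14 by -0.0008 (-0.26 to 0.26), Timp3 by -0.04 (-0.37 to 0.29) and Mmp8 by 0.15 (-0.55 to 0.86). Mmp9 was higher in every sgBap1-CCl4 than in every NTC-CCl4 liver (0.33, -0.10 to 0.76, adjusted p = 0.475), and Mmp19 lower (-0.16, -0.35 to 0.02, adjusted p = 0.413). With Timp1, 2 members were higher and 1 lower without overlap, where 10.1% of all genes were higher and 10.2% lower in this way (20.3% in either direction).

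**Figure D3:**
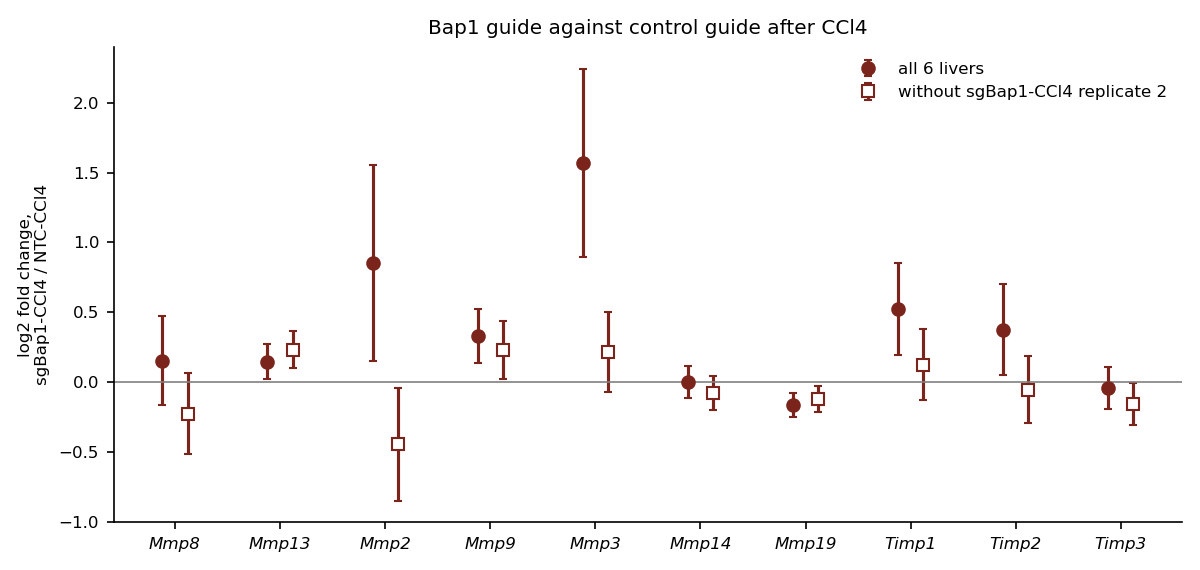
log2 fold change of each member in sgBap1-CCl4 against NTC-CCl4 livers (vertical axis), with bars of 1 SE, from all 6 livers (filled circles) and without sgBap1-CCl4 replicate 2 (open squares). Mmp3 moves from 1.57 to 0.22 and Mmp2 from 0.86 to -0.45, while Mmp13 lies at 0.15 and 0.23.

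The interaction asks whether the response to CCl4 differs between guides. It was called for 0 of the 10 members and for 0.0% of all genes by edgeR, while 1 member, Mmp14, had an unadjusted p under 0.05, against 10.4% of all genes. The DESeq2 Wald test run here also called 0 of the 10 members, its share over all genes not being given here. The paper, with DESeq2, reports genes with a significant interaction, so the edgeR share of 0.0% does not mean that no gene differs. For Mmp14 the log2 response was larger in sgBap1 livers by 0.49 ± 0.18 (95% interval 0.08 to 0.90, adjusted p = 0.383), with levels after CCl4 of 76.1 CPM for both guides and vehicle levels of 35.6 CPM in NTC and 25.3 CPM in sgBap1. This value was 0.63 without NTC-Veh replicate 1 and 0.34 without NTC-Veh replicate 2. For Timp1 the interaction was -1.23 ± 0.72 (interval -2.87 to 0.41), and its size rested on single livers, being -0.48 without NTC-Veh replicate 1, -2.82 without NTC-Veh replicate 2 and -1.63 without sgBap1-CCl4 replicate 2. For Mmp9 it was -0.54 (-1.45 to 0.38), with -1.21 without NTC-Veh replicate 1 and -0.085 without NTC-Veh replicate 2. For Timp3 it was -0.45 (-0.98 to 0.07) and for Mmp19 -0.21 (-0.51 to 0.08). Timp3 passed the threshold in NTC and not in sgBap1 livers, and the interaction gave no call of a difference between them (adjusted p = 0.567).

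To compare the members with each other, levels were divided by the length of merged exons (CPM per kb). The ranks and shares below hold among the members only. On this scale Mmp15, not a member, stood at 7.59 in NTC-Veh livers, and Mmp12 at 17.2 in NTC-CCl4 livers, each above Mmp14. With vehicle, Mmp19 stood first in NTC livers with 24.7 ± 0.75 (SD, n = 2), ahead of Mmp14 with 5.97 ± 0.84, Timp2 with 3.31 ± 1.3 and Timp3 with 2.75 ± 0.17. Timp2 and Timp3 overlapped, and so did Mmp2, Timp1 and Mmp9 with their neighbours below, at 0.781, 0.653 and 0.162. After CCl4 in NTC livers, Timp1 led with 24.5 ± 0.44 (SD, n = 3), followed without overlap by Mmp19 with 20.3 ± 0.93 and Mmp14 with 12.8 ± 1.44. Timp2, Timp3 and Mmp13 (4.91, 4.86 and 4.14) overlapped with each neighbour, and so did Mmp9, Mmp2, Mmp3 and Mmp8 (1.05, 0.878, 0.858 and 0.825). The order in sgBap1 livers began with the same 3 genes after CCl4. It depended on the length used: with the longest annotated transcript, a length chosen after seeing the data, Mmp14 (23.5 ± 2.64) stood above Mmp19 (21.1 ± 0.97) in NTC-CCl4 livers and overlapped both Mmp19 and Timp1 (24.7 ± 0.44). With vehicle in NTC livers that length left Mmp19 first (25.6) and Mmp14 next, with Timp3 (4.75) above Timp2 (3.47).

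The make-up of both classes differed between vehicle and CCl4 livers on this scale. Mmp19 was 77.8% of the summed level of the 7 MMP members in NTC-Veh livers and 49.8% in NTC-CCl4 livers, while Mmp14 went from 18.8% to 31.2% and Mmp13 from 0.339% to 10.2%. With the longest transcript as length, Mmp14 went from 29.0% to 44.6% and Mmp19 from 67.9% to 40.2%, so that which of the pair made up more of the sum after CCl4 depended on the length. Timp1 was 8.7% of the summed level of the 3 TIMPs in NTC-Veh livers (4.1% and 13.3% in single livers), 23.4% in sgBap1-Veh, 71.5% in NTC-CCl4 and 75.7% in sgBap1-CCl4. The ratio of the summed TIMP level to the summed MMP level was 0.172 and 0.247 in NTC-Veh, 0.320 and 0.284 in sgBap1-Veh, 0.847, 0.858 and 0.816 in NTC-CCl4 and 0.895, 1.44 and 0.935 in sgBap1-CCl4. On this scale the groups did not overlap, and the highest ratio belonged to sgBap1-CCl4 replicate 2. Since its members were chosen with results known, this ratio was given no test, and it depends on the short length of Timp1 (0.888 kb): without division by length the group means were 0.283, 0.379, 0.475 and 0.554 in the same order, and sgBap1-CCl4 replicate 1, at 0.458, lay below the 3 NTC-CCl4 livers (0.468 to 0.488). It also depends on the genes summed. With all 23 MMP and 4 TIMP genes of the table, Mmp12 and Mmp15 among them, a choice made after seeing the data, the group means were 0.161, 0.237, 0.508 and 0.673, and the highest NTC-CCl4 liver and the lowest sgBap1-CCl4 liver were level at 0.545.

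**Figure D4:**
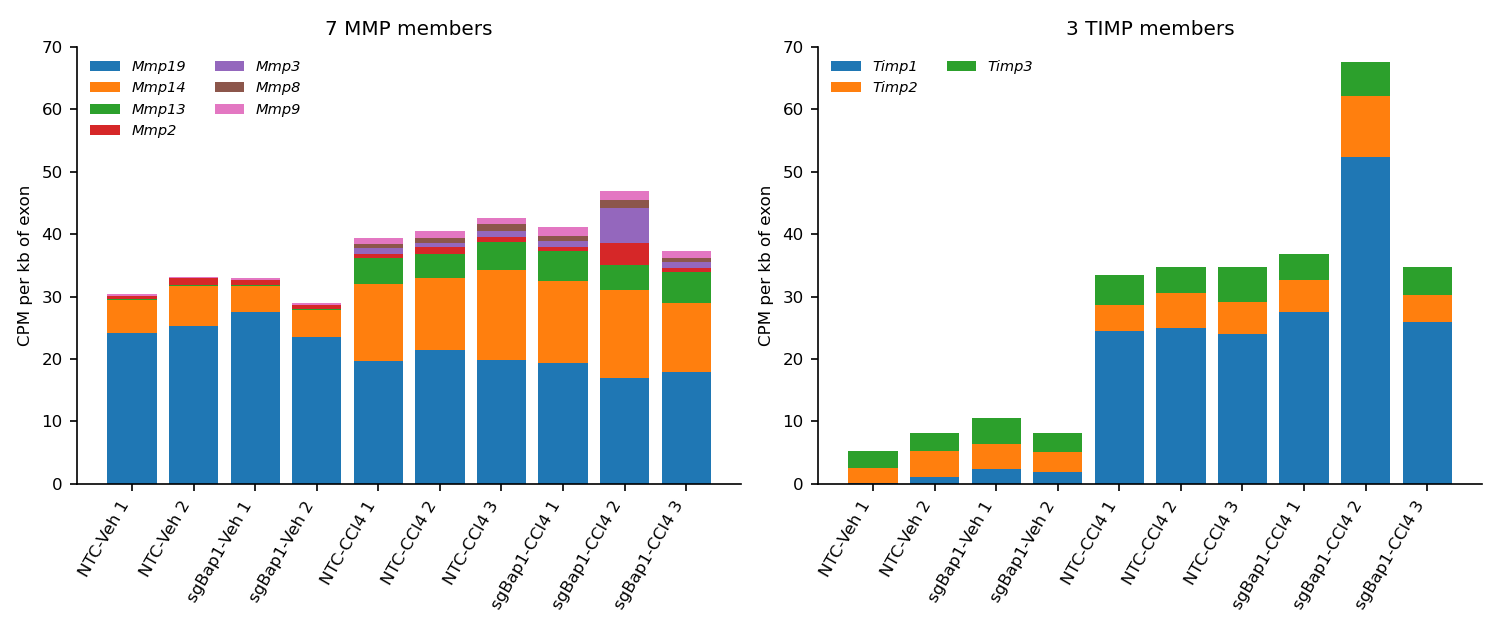
Stacked levels in each liver, in CPM per kb of merged exon, for the 7 MMP members (left) and the 3 TIMP members (right), on the same linear scale from 0. With vehicle the MMP bars are mostly Mmp19, and after CCl4 the TIMP bars are mostly Timp1, the tallest being sgBap1-CCl4 replicate 2 at 67.5 in all.

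Mmp13, Mmp3 and Mmp8 lie in a run of 10 MMP genes on chromosome 9 that spans 420 kb between the starts of Mmp13 and Mmp7. Of their 7 neighbours, only Mmp12, Mmp10 and Mmp27 passed the filter for testing. All 3 were called higher in NTC livers, and Mmp12 and Mmp10 in sgBap1 livers, against 27.4% and 29.0% of all genes. Mmp10, without counts in the vehicle livers, passed the filter through its CCl4 livers and could only be called higher. Mmp12, the macrophage elastase that lies 71.9 kb from the start of Mmp13, rose from 0.302 ± 0.0038 (SD, n = 2) to 124 ± 36.7 CPM (n = 3) in NTC livers, a log2 fold change of 8.67 ± 0.33 (adjusted p = 4.88e-07), and by 7.79 ± 0.31 in sgBap1 livers. Mmp10 (stromelysin-2), with 0 counts in all 4 vehicle livers, was at least 6.31-fold higher in NTC and at least 5.97-fold higher in sgBap1 livers (adjusted p = 0.0175 in each). The bound in sgBap1 livers was 3.62-fold without sgBap1-CCl4 replicate 2, and the NTC call was lost without NTC-Veh replicate 1 (adjusted p = 0.0743). Mmp27 rose by 1.29 ± 0.31 in NTC livers (adjusted p = 0.00568) and read 0.25 ± 0.30 in sgBap1 livers (adjusted p = 0.51). Mmp1a, Mmp1b and Mmp20 had 0 counts in all 10 livers, and Mmp7 did not exceed 0.166 CPM.

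**Figure D5:**
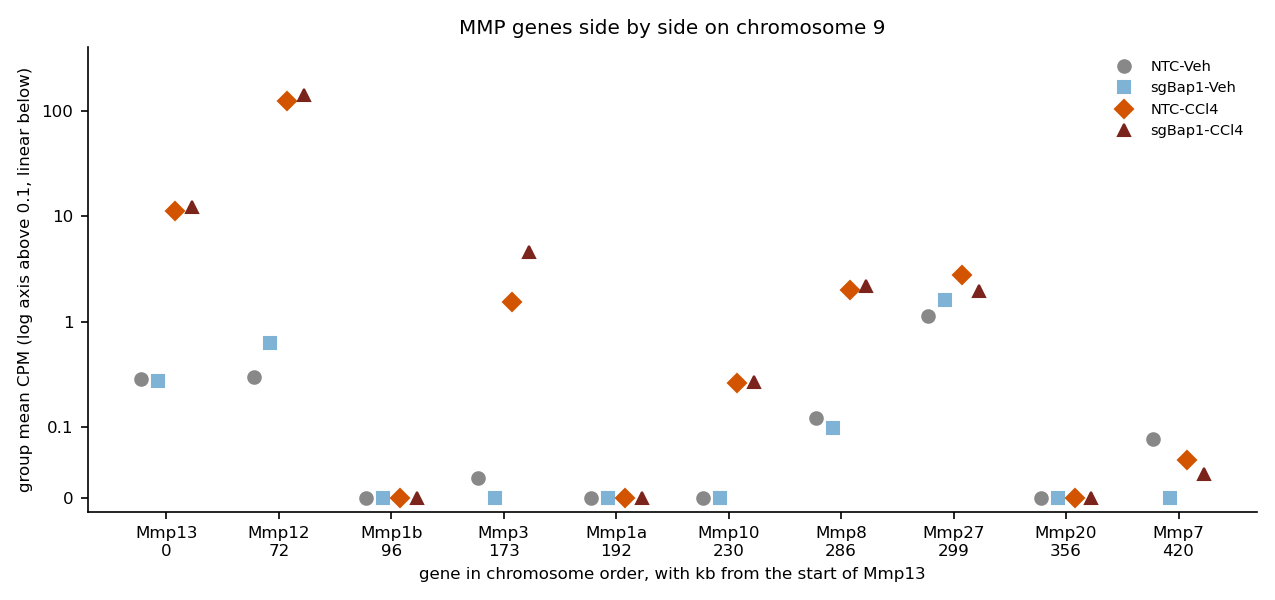
Group mean level in CPM (vertical axis, log above 0.1 and linear below) of the 10 MMP genes in their order on chromosome 9, with the distance in kb from the start of Mmp13 under each name. Mmp13, Mmp12, Mmp3, Mmp10 and Mmp8 lie higher after CCl4 with both guides, whereas Mmp1b, Mmp1a and Mmp20 stay at 0.

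Of the 17 other MMP and TIMP genes, 10 were tested, and 5 rose in NTC livers after CCl4 while 5 were not called. Of all genes 27.4% were called higher and 26.6% lower in NTC livers, and 29.0% and 28.0% in sgBap1 livers. The 5 that rose were Mmp12, Mmp10 and Mmp27, described above, and the membrane-anchored Mmp24 (0.137 to 0.806 CPM, group means) and Mmp25 (0.0547 to 0.502 CPM). The vehicle values of Mmp24 and Mmp25 rest on 1 to 6 counts a liver. Both, like Mmp10, passed the filter through their CCl4 livers and could hardly be called lower. Mmp24 had 3 counts over sgBap1-Veh, the floor used here. In sgBap1 livers 4 rose (Mmp12, Mmp10, Mmp24 and Mmp25) and Mmp15, a membrane-type MMP, fell by 0.83 on the log2 scale (SE 0.27, adjusted p = 0.0266, and 0.0505 without sgBap1-CCl4 replicate 2), from 36.3 ± 3.1 to 20.5 ± 6.4 CPM. None of the 10 was called by edgeR between guides with vehicle, between guides after CCl4 or in the interaction. Of all genes 0.406%, 0.329% and 0.0% were called in these 3 tests. In each of them 1 of the 10 had an unadjusted p under 0.05, against 12.3%, 14.0% and 10.4% of all genes. Genes that activate or restrain MMPs formed a list of 20, of which 17 were tested. In NTC livers 8 rose and 5 fell, and in sgBap1 livers 8 rose and 6 fell, beside the shares of all genes given above. This list was thus split in direction. Among those that rose were Thbs1, a matrix protein that binds MMPs (5.87 ± 0.48 in NTC and 6.61 ± 0.49 in sgBap1 livers), and Plaur, the urokinase receptor (4.77 ± 0.25 and 4.90 ± 0.25), both on the log2 scale. Serpinb2, a serine protease inhibitor of the urokinase system, was at least 10.3-fold higher in NTC livers (59 counts against 0), and its ratio of summed counts was 23.0 in sgBap1 livers (95% counting interval 6.21 to 192, from 118 and 2 counts). Serpinb2 too passed the filter through its CCl4 livers.

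For each member, the 12028 genes averaging 100 counts or more were searched for the 3 whose centred log2 CPM over the 10 livers differed least from it, by the root mean square (RMS) difference. For Mmp13, which ranges over 5.67 log2 units, these were Clec4d (RMS 0.255), Ccr1 (0.261) and Dlgap5 (0.299). For Mmp9 they were P2ry6 (0.137), Parvg (0.163) and Hmox1 (0.178), and for Mmp8 Polq (0.355), Anln (0.361) and Nrg1 (0.37). Mmp2 lay nearest Adgrd1 (0.286), the collagen gene Col6a1 (0.327) and Antxr1 (0.349). Timp2 lay nearest Arhgef10 (0.14), Cygb, the globin of stellate cells (0.166), and P3h3 (0.176), and Timp1 nearest Chst11 (0.405), Gm21188 (0.575) and Cpe (0.58). The nearest genes to the others were Ccnb2 for Mmp3 (0.652), Myo1c for Mmp14 (0.104), Exoc7 for Mmp19 (0.052) and Lyn for Timp3 (0.111). All points come from the same 10 libraries, and the distances are descriptions.

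Some members overlap other genes. Timp1 lies within Syn1 on the opposite strand with 0 shared exon bases, and Syn1 read 0.222 to 0.7 CPM with vehicle and 1.42 to 1.82 CPM after CCl4. Timp3 lies within Syn3, also opposite, with 1733 shared exon bases and Syn3 at 0.524 to 1.1 CPM. Mmp19 shares 789 exon bases with Tmem198b (4.52 to 8.29 CPM) and 212 with Gm47093 on the opposite strand, and Cep295nl lies within Timp2 on the same strand at up to 0.128 CPM. The library kit marks strand, but the strand setting of the counting was not given in the sources used here, so reads of these overlaps are uncertain.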

How the data were processed

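Bulk RNA-seq of 10 mouse livers was analysed. Libraries came from a kit for stranded mRNA and were read as paired ends of 50 bases. The authors aligned the reads to GRCm38 with STAR 2.7.6a and estimated counts with Salmon 1.4.0 on GENCODE vM25, as the methods and the processing notes state. The deposited values are these estimated counts (expected counts) per gene symbol, without normalization, and 9.22% of them are not whole numbers. All 10 columns matched a sample by group and replicate number.

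The counts, rounded, were fitted with edgeR 4.0.16 under R 4.3.3. Genes were filtered with filterByExpr by group, scaled by TMM, and fitted in 1 model of the 4 groups (glmQLFit, robust, not legacy). Contrasts were tested with the two-sided quasi-likelihood test and Benjamini-Hochberg adjustment over all 17015 tested genes, with a threshold of 0.05. A fold against 0 counts used a floor of 3 counts over the group. The log2 CPM used a pseudocount of 2. The code was tested on simulated data. Positions, exon lengths and shared stretches come from GENCODE vM21 on the same build, because vM25 was not used here.

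The members and gene lists were chosen with earlier results of these data known. All members were named, as were called genes of the other MMP and TIMP list and at most 4 called genes with the largest log2 fold change of any other list that is described. A gene that this rule names in the list of MMP activation and restraint is not reported here. Replicates are labelled as separate liver samples, and p-values measure the spread between them. No batch is named in the labels. The authors' own analysis used DESeq2, and it reported more genes than were called here between guides with vehicle and for the interaction. Alternatives were DESeq2 1.42.0 size factors and Wald test, library size alone, no filter, genes averaging 10 counts or more, a block for the replicate number, the edgeR 3 method, limma-voom (limma 3.58.1), only the 2 groups compared, and each liver left out. Chosen after seeing the data were the ratio over all MMP and TIMP genes, the order by longest transcript, and gene lists and bounds without the livers that stood apart. The spatial data and histology were not used here.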

Additional observations from a re-analysis of the deposited data

How the results depend on the processing

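With 2 or 3 livers a group, all 10 members' calls rest on few samples, and Mmp3 and Mmp8 with vehicle on 6 counts or fewer a liver. The number of members called stayed at 6 to 8 for NTC livers after CCl4, at 7 to 8 for sgBap1 livers after CCl4, and at 0 in the other 3 comparisons, under every alternative run and without any liver. For member values called in the fit as reported, 129 of 135 values under other settings and 143 of 150 without a liver kept direction and call. For those not called it was 296 of 303 and 321 of 350. With library size alone, Mmp19 after CCl4 in NTC livers turned to 0.191 (log2) and Mmp14 between guides after CCl4 to 0.019, the latter being 0.007 with no filter. Same-numbered livers were not seen to be more alike than others. The 13 same-numbered pairs correlated at -0.149 to 0.102, 2 of them over 0.1, and 24 different-numbered pairs at -0.157 to 0.157, 3 of them over 0.1. This check is weak and cannot exclude a pairing, because in groups of 2 livers the deviations from the mean mirror each other. With the replicate block, 7 members were called in NTC livers, Mmp19 losing its call (adjusted p = 0.0754), and 7 in sgBap1 livers, no other member call changed, and Mmp2 between guides with vehicle turned to 0.195 (0.108 with limma-voom). The cause of these turns was not tested. Leaving out each liver in turn changed the sign of the following log2 values, none of them called. Mmp2 ranged from -0.328 to 0.968 for CCl4 in NTC, -0.23 to 1.459 for CCl4 in sgBap1, -0.547 to 0.749 between guides with vehicle, -0.447 to 1.243 between guides after CCl4 and -0.413 to 1.4 for the interaction. Between guides with vehicle, Mmp8 ranged from -1.655 to 0.379, Mmp13 from -0.417 to 0.218, Mmp19 from -0.071 to 0.156 and Timp2 from -0.253 to 0.572. Between guides after CCl4, Mmp8 ranged from -0.226 to 0.404, Mmp14 from -0.077 to 0.091, Timp2 from -0.054 to 0.586 and Timp3 from -0.158 to 0.086. For the interaction, Mmp8 ranged from -0.226 to 1.809, Mmp13 from -0.072 to 0.563 and Timp2 from -0.198 to 0.627. The ratio of TIMP to MMP level moved to 0.3416 in sgBap1-Veh and 0.7275 in NTC-CCl4 with the longest transcript as length, and without division by length to 0.2826 in NTC-Veh, 0.3791 in sgBap1-Veh, 0.4753 in NTC-CCl4 and 0.5535 in sgBap1-CCl4. With all MMP and TIMP genes of the table, chosen after seeing the data, it moved to 0.2368 in sgBap1-Veh, 0.5082 in NTC-CCl4 and 0.6732 in sgBap1-CCl4, and the lower bound of Mmp3 in sgBap1 livers to 37.8-fold without sgBap1-CCl4 replicate 2.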

Other observations

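RNAs of matrix proteins that MMPs cut were mostly higher after CCl4. Of 20 matrix genes, all tested, 14 rose in NTC and 14 in sgBap1 livers, 0 fell and 6 were not called, where 27.4% and 29.0% of all genes were called higher and 26.6% and 28.0% lower, and the median log2 fold change was 2.08 and 2.53, against 0.03 and 0.04 over all genes. Vcan, a large proteoglycan, rose by 6.28 ± 0.59 (log2) in NTC livers, the fibrillar collagen Col1a1 by 4.36 ± 0.88, the basement membrane protein Nid1 by 3.98 ± 0.14 and Col3a1 by 3.08 ± 0.69. Without NTC-Veh replicate 1, 11 matrix genes rose in NTC livers and Col3a1 was not called (2.74, adjusted p = 0.0502). Without sgBap1-CCl4 replicate 2 the count in sgBap1 livers was 14 and the median log2 fold change 2.13. Between guides and in the interaction 0 of the 20 were called by edgeR. At an unadjusted p under 0.05 there were 0 with vehicle, 3 after CCl4 and 2 in the interaction, against 12.3%, 14.0% and 10.4% of all genes.

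The related ADAM and ADAMTS proteases, some of which Timp3 inhibits, were also mostly called higher after CCl4: 12 of 16 rose and 1 fell in NTC livers, and 14 rose and 0 fell in sgBap1 livers, against 27.4% and 29.0% of all genes called higher. The count in NTC livers was 11 without NTC-Veh replicate 1, and in sgBap1 livers 14 without sgBap1-CCl4 replicate 2. The aggrecanase Adamts4 rose by 5.34 ± 0.38 in NTC and 6.31 ± 0.41 in sgBap1 livers, Adam8 by 4.93 ± 0.36 and 4.65 ± 0.35, Adam12 by 3.46 ± 0.72 and 4.25 ± 0.75, and Adamts12 by 3.15 ± 0.42 and 3.98 ± 0.45. Adam12 had 14.5 CPM in sgBap1-CCl4 replicate 2 against 6.54 and 3.04 CPM in the other sgBap1-CCl4 livers, and without that liver it rose by 3.51 ± 0.42. Sinusoidal endothelial markers, another known source of TIMPs, rose for 5 of 8 genes in NTC livers (Lyve1 by 1.60 ± 0.21 and Pecam1 by 1.29 ± 0.17 among them), while in sgBap1 livers 3 rose and 2 fell, or 3 and 0 without sgBap1-CCl4 replicate 2. The 6 pancreatic acinar markers summed to at most 0.708 CPM in any liver.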
